A study of Macaca mulatta with 449 samples.

Results

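The endocannabinoid system genes examined here were the cannabinoid receptor gene CNR1, the biosynthetic enzyme genes DAGLA, DAGLB and NAPEPLD, and the hydrolytic enzyme genes MGLL, FAAH and ABHD6. They were taken by symbol as rows of a gene count table, and rows were matched for 5 of the 7, among 30807 genes in all: CNR1 (ENSMMUG00000000763), DAGLB (ENSMMUG00000010292), NAPEPLD (ENSMMUG00000004236), MGLL (ENSMMUG00000000168) and ABHD6 (ENSMMUG00000006315). DAGLA and FAAH were not analysed here. The study sequenced ribosomal RNA-depleted RNA of dissected brain pieces from 8 healthy rhesus macaques (Macaca mulatta) of a single source, to map the transcriptome over the whole brain. The animals were untreated. Of the 4 males, Rhesus 2 and 3 were 10 years old, Rhesus 7 was 4 and Rhesus 8 was 3.8. The 4 females were Rhesus 6 at 10 years, Rhesus 11 at 9.8, Rhesus 10 at 5 and Rhesus 4 at 3.2. Animals of 5 years or less were called young and the others mid-aged, with 4 animals in each stage.

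Endocannabinoids are lipid messengers that many neurons make on demand from their membranes and release backwards across the synapse, where they act on the cannabinoid receptor encoded by CNR1 and lower transmitter release. The messenger 2-arachidonoylglycerol is made by the diacylglycerol lipases and broken down mainly by monoacylglycerol lipase (MGLL), with ABHD6 as a further hydrolase, whereas anandamide and other N-acylethanolamines can be released from membrane phospholipids by NAPEPLD. The receptor is known for its density in the basal ganglia, the cerebellum and a class of cortical interneurons, and it is carried along axons, so that its RNA marks the cell bodies that make it and not the terminals where it acts.

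All 51 sub-regions with columns in the table were used, each with 1 sample from each of the 8 animals. They fell into 16 region groups: the cerebral cortex (31 sub-regions), the hippocampus (HIP; dentate gyrus DG, CA1 and CA3), the striatum (STR; accumbens nucleus ACb, caudate nucleus CN and putamen PUT), the cerebellum (CB; cerebellar cortex CBC and vermis CBV), and 1 sub-region each for the entorhinal and perirhinal cortex (PA), amygdala (AMY), olfactory bulb (OB), globus pallidus (GP), thalamus (THA), hypothalamus (HTHA), pituitary (PIT), ventral tegmental area (VTA), substantia nigra (SN), pons (PON), medulla oblongata (MO) and corpus callosum (CC). Where a group held several sub-regions, their counts were added up per animal. Total counts ran from 7784678 to 31083490 per sample (median 10698602). DAGLB, NAPEPLD, MGLL and ABHD6 had at least 100 counts in every sample, and CNR1 had a count in every sample but 1, with at most 3441. Levels are given as CPM (counts scaled to a common library size) on library sizes scaled by TMM (trimmed mean of M values).

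Cell type markers stood where the labels place them: on the scale of the mean log2(CPM + 1) over a marker list, oligodendrocyte markers were highest in CC (12.6), cerebellar markers in CB (9.76), medium spiny neuron markers in STR (8.70) and anterior pituitary markers in PIT (10.7). Several libraries stood apart from the others of their sub-region. The HTHA library of Rhesus 6 had markers of cortical and hippocampal glutamatergic neurons at 7.60, against 3.16 to 3.86 in the other 7 animals. The MO library of Rhesus 6 had neuronal markers at 5.08, against 8.71 to 9.46 elsewhere. In the GP library of Rhesus 3, medium spiny neuron markers were at 6.07, against 2.85 to 4.11. The CBC library of Rhesus 4 had CNR1 at 13.8 CPM, against 126 to 179 CPM, while its cerebellar markers (9.59) lay within the range of the other 7 (9.54 to 9.96). Some cortical libraries of Rhesus 4 were low in CNR1 too. They held 2.72 CPM in the posterior cingular, 11.8 in the anterior cingular and 10.0 in the posterior superior frontal gyrus. The other 7 animals had 36.6 to 68.7, 36.8 to 105 and 44.8 to 95.3 CPM there.

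Which parts of the brain differed from the cerebral cortex in these 5 genes was asked first. CNR1 covered the widest range of the 5, from a mean of 155 CPM in CB to 0.418 CPM in PON, a ratio of 370. MGLL spanned 18.3-fold between THA and PIT, NAPEPLD 10.0-fold between CC and PIT, ABHD6 4.80-fold between CC and HTHA, and DAGLB 3.43-fold between the cortex and PIT. In bulk tissue, fewer cells of a type and less RNA per cell cannot be told apart. Of 75 pairs of a gene and a region group, 24 (32%) were called against the cortex at an FDR below 0.05 and a fold above 2, where 24.5% of the 252435 pairs over all genes were called. The FDR is the Benjamini-Hochberg adjusted p of edgeR's quasi-likelihood test over the 16829 genes tested, with the animal as a block. Of the 24 calls, 3 were higher than the cortex (12.3% of all pairs were) and 21 were lower (12.2% of all pairs). At an FDR below 0.05 alone, 59 of the 75 passed, next to 60.9% of all pairs. The median log2 fold change (log2FC) of the 75 was -0.50, and that of all genes was -0.00071.

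**Figure D1:**
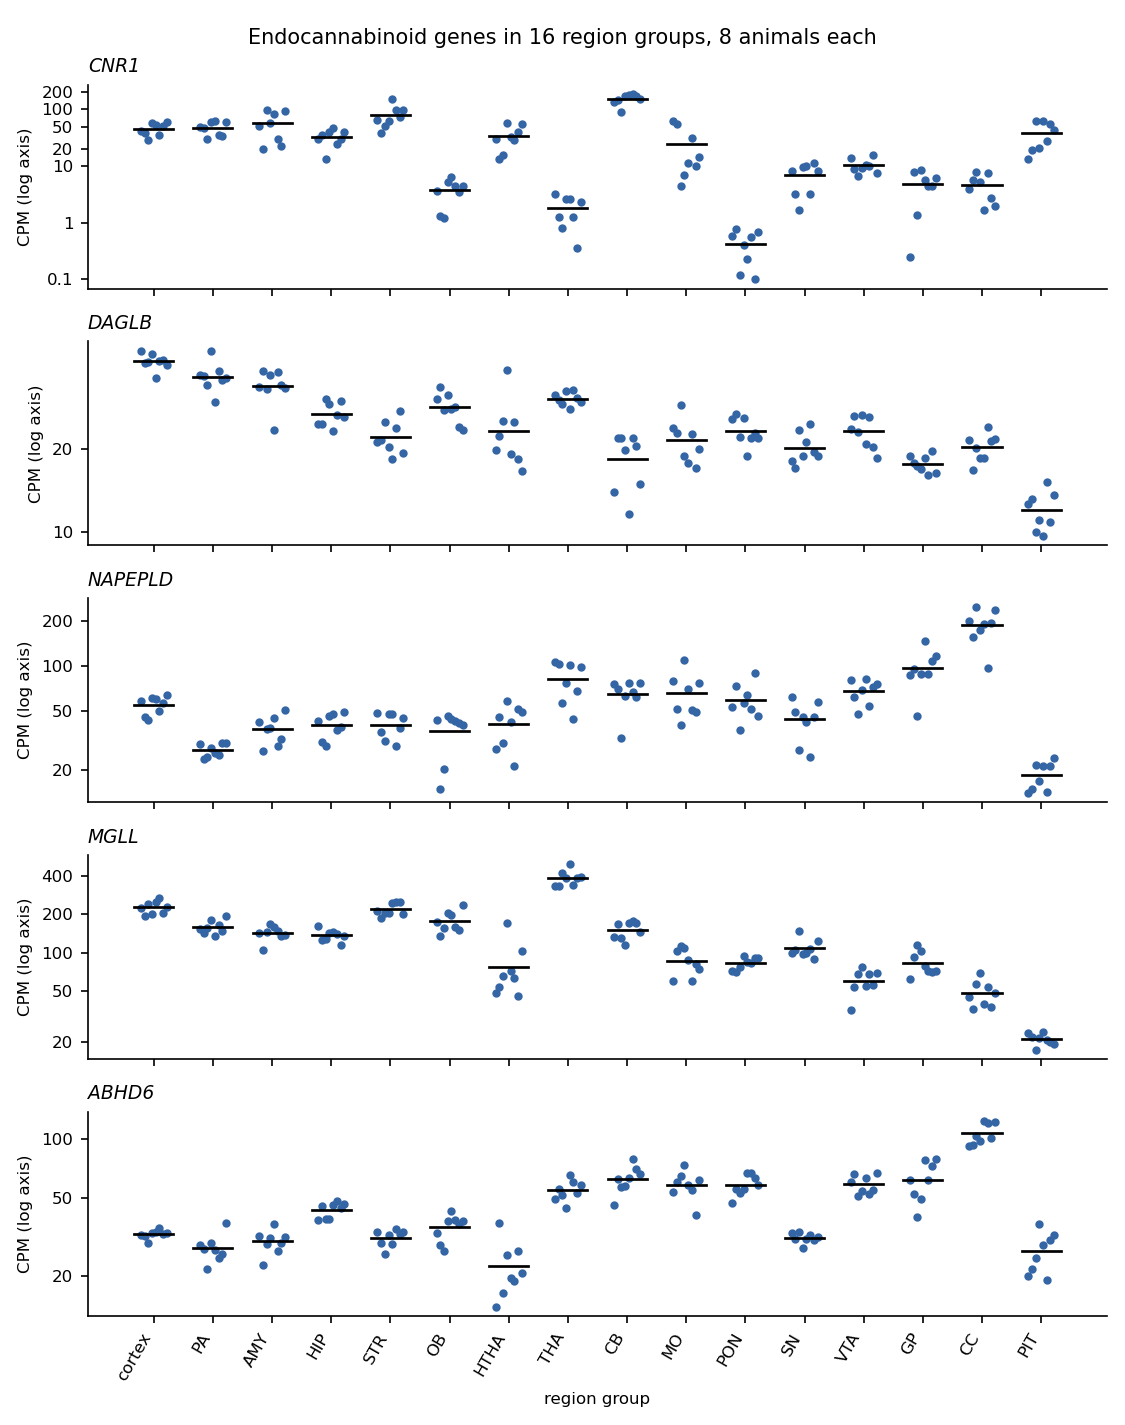
Levels of the 5 genes in 16 region groups: each point is 1 animal (n = 8), on a log axis in TMM-scaled CPM, and the bars mark group means. CNR1 runs from 155 CPM in CB to 0.418 CPM in PON, where the library of Rhesus 10 with no count is drawn at 0.1 CPM, while the group means of DAGLB stay within 3.43-fold.

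The region groups differed in how many of the 5 genes were called. All 5 were called in CC, where 44.2% of all genes were. In GP, PIT and SN 3 genes were called, against backgrounds of 34.8%, 44.7% and 28%. CB, PON and VTA had 2 called each, next to 25.7%, 24.9% and 28.3% of all genes. HTHA (18.6%), MO (28.3%), OB (22.5%) and THA (19.7%) had 1 called each. In AMY (9.54%), HIP (12.4%), PA (8.92%) and STR (16.9%) edgeR called 0 of 5, and DESeq2 likewise called 0 in each, while 3, 4, 4 and 3 of the 5 passed an unadjusted p below 0.05. The count in CC stood furthest above its background, and the 4 groups with no call were those with the lowest backgrounds.

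**Figure D2:**
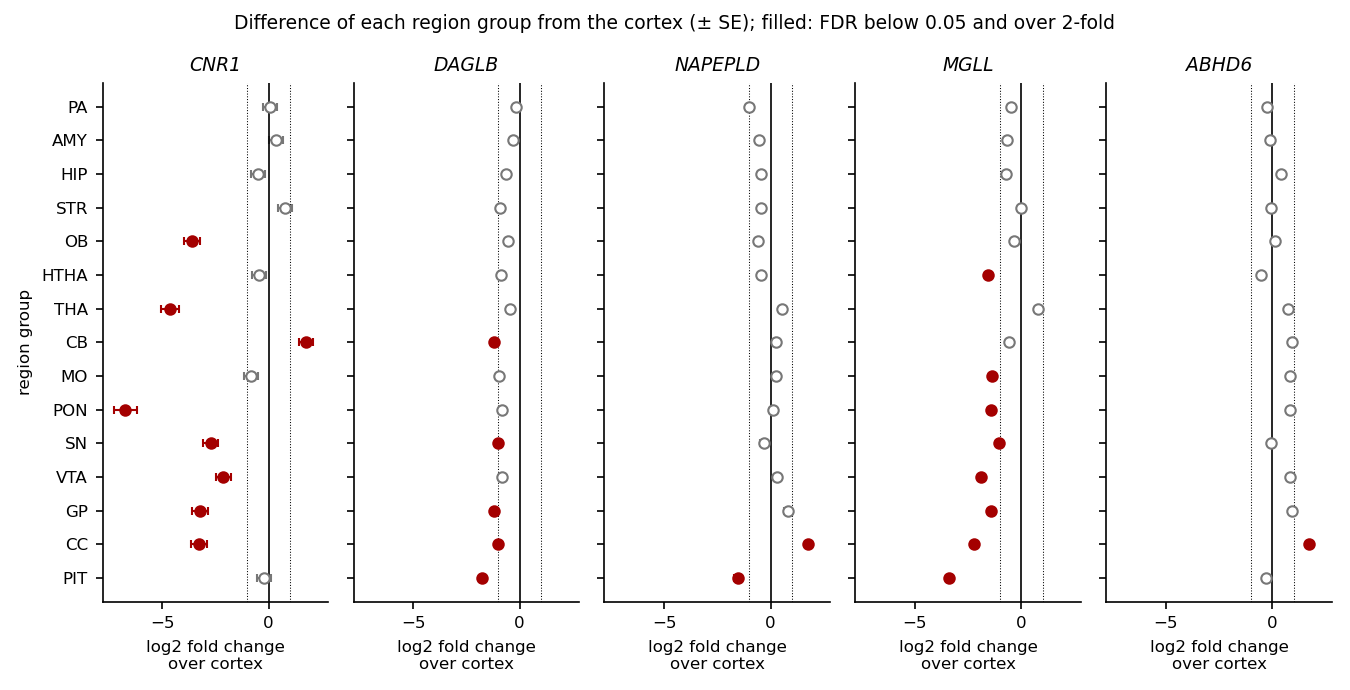
Log2 fold changes of the 5 genes against the cerebral cortex in 15 region groups, from edgeR, with error bars of 1 SE; filled points are calls at an FDR below 0.05 and a fold above 2, and dotted lines mark the fold of 2. The 3 higher calls are CNR1 in CB and NAPEPLD and ABHD6 in CC, and all 15 DAGLB points lie below 0.

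CNR1 encodes the receptor itself. In CB its level was 89.7 CPM in the lowest animal, 162 at the median and 189 in the highest, against 29.5, 46.2 and 59.2 in the cortex. The ranges did not overlap, and the lowest CB value belonged to Rhesus 4. The log2FC was 1.77 ± 0.33 (SE; 3.42-fold, FDR = 1.29e-06), and 1.87 without the CBC library of Rhesus 4. In STR the values were 38.4, 69.7 and 150 CPM, above the cortex of the same animal in 8 of 8, with overlapping ranges. This difference passed the FDR but not the fold of 2 (log2FC 0.78 ± 0.32, FDR = 0.0347). The STR value pools sub-regions on both sides of the cortex. CNR1 averaged 148 CPM in PUT, 72.5 in CN and 22.7 in ACb, against 45.7 in the cortex. These single sub-regions were not tested against the cortex. AMY (log2FC 0.35), PA (0.05), PIT (-0.20), HTHA (-0.46) and HIP (-0.50) did not pass the FDR. HTHA and HIP were nonetheless below the cortex of the same animal in 8 of 8, while AMY, PA and PIT were above it in 4, 5 and 3 of 8.

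At the other end, CNR1 was lower than in the cortex in 7 groups. In PON the 8 libraries held 0 to 8 counts of CNR1, or 0 to 0.780 CPM with a median of 0.476. Every PON library lay far under the lowest cortical value. The fitted log2FC was -6.73 ± 0.52 (106-fold, FDR = 2.07e-22), and its size rests on these few counts. THA followed, at 0.353, 1.80 and 3.23 CPM (lowest, median, highest) and 4 to 39 counts, with a log2FC of -4.64 ± 0.42, or 25-fold lower. OB (1.19 to 6.41 CPM), CC (1.70 to 7.74), GP (0.248 to 8.51), SN (1.65 to 11.4) and VTA (6.65 to 15.8) also lay below the cortical range in all animals. Their log2FC were -3.60 ± 0.38, -3.25 ± 0.38, -3.23 ± 0.37, -2.73 ± 0.36 and -2.12 ± 0.35, and the largest FDR among them was 7.26e-08. Without the library of Rhesus 3, the log2FC of CNR1 in GP was -3.43. General neuronal markers averaged 10.1 in both PON and the cortex, 7.77 in GP and 5.18 in CC. The list of interneuron markers held CCK, VIP, GAD1, GAD2, SLC32A1 and CXCL14, and whether it tracks interneurons outside the cortex was not tested. These markers lay between 2.63 (PON) and 6.04 (OB) in these 7 groups, against 7.10 in the cortex. Markers of cortical and hippocampal glutamatergic neurons lay between 2.57 (GP) and 5.05 (OB), against 8.47. Both lists were also lower in CB (4.18 and 4.26), where CNR1 was highest, and their part in the CNR1 levels was not tested.

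MO was the group in which animals differed most in CNR1, with a coefficient of variation of 93.6%. Rhesus 2 and Rhesus 3 had 63.6 and 55.6 CPM, Rhesus 8 had 31.8, and the other 5 animals had 4.54 to 14.4. The 2 highest libraries exceeded the cortex of the same animals, and the other 6 were below it. The same 2 libraries were low in the list of interneuron markers (2.87 and 2.98 on the log2 scale), as was that of Rhesus 6 (1.86), against 4.18 to 5.27 in the other 5. The part of these markers in the CNR1 levels was not tested. In MO the log2FC of CNR1 against the cortex was -0.84 ± 0.33 (FDR = 0.0221), and it was -0.66 (FDR = 0.0752) without the library of Rhesus 6 that was poor in neuronal markers.

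Animals also differed more in CNR1 than in the other 4 genes over the region groups as a whole. The coefficient of variation of CNR1 had a median of 50.1% (20.6 to 93.6%), against 12.6% for DAGLB, 13.2% for ABHD6, 14.8% for MGLL and 23.6% for NAPEPLD. This difference was not tested. Rhesus 4 had the lowest CNR1 of the 8 animals in 22 of 51 sub-regions and the lowest NAPEPLD in 25. Rhesus 6 had the highest CNR1 in 15 sub-regions, and Rhesus 11 the highest NAPEPLD in 26. Of the 51 sub-regions 31 were cortical. Over the 16 region groups Rhesus 4 was lowest in 8 for CNR1 and in 7 for NAPEPLD. Rhesus 6 was highest in CNR1 in only 2 of these groups and Rhesus 7 in 5, and Rhesus 11 was highest in NAPEPLD in 4.

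DAGLB encodes the diacylglycerol lipase that is well known from microglia and macrophages, next to the mainly neuronal DAGLA. It was highest in the cortex, with 36.1, 41.4 and 44.9 CPM in the lowest, median and highest animal, and its log2FC was below 0 in all 15 other groups. In 5 of them it was lower by more than 2-fold. PIT had 9.68, 11.8 and 15.2 CPM (log2FC -1.78 ± 0.10, FDR = 2.63e-34), well under every cortical value. GP (-1.22), CB (-1.19), SN (-1.04) and CC (-1.02) followed, each with an SE of 0.09 and with all 8 animals under their own cortex. The 9 groups from MO (-0.95) to AMY (-0.30) passed the FDR with smaller folds, while PA (-0.19, FDR = 0.104) did not pass. HTHA belonged to these 9 with -0.85, and without the library of Rhesus 6, at 38.6 CPM the highest of its 8, its log2FC was -1.01 and past the fold of 2. Microglial markers, with usable rows for P2RY12 and CSF1R out of 6 listed, averaged 5.06 in the cortex on the log2 scale. In the 5 groups called lower they were at 7.00 in GP, 6.66 in CC, 6.59 in SN, 4.47 in CB and 2.87 in PIT. Their part in the DAGLB levels was not tested.

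NAPEPLD encodes the phospholipase that releases N-acylethanolamines. Its highest level was in CC, with 97.0, 192 and 246 CPM in the lowest, median and highest animal, against 43.2, 57.4 and 64.1 in the cortex. All 8 CC libraries exceeded all 8 cortical values, and the log2FC was 1.78 ± 0.15 (3.44-fold, FDR = 5.60e-20). GP had 46.3, 92.2 and 146 CPM, above the cortex of the same animal in 8 of 8 (log2FC 0.81 ± 0.15, FDR = 1.25e-06). THA was higher in 7 of 8 (0.56 ± 0.15, FDR = 0.000888), and both GP and THA stayed under the fold of 2. VTA (0.30, FDR = 0.0719), MO (0.25), CB (0.25) and PON (0.11) did not pass the FDR, though they were above the cortex in 8, 6, 7 and 4 of 8 animals.

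Below the cortex, NAPEPLD was called in PIT alone, with 14.1, 19.3 and 24.1 CPM and no overlap (log2FC -1.54 ± 0.16, FDR = 4.57e-16). PA came next, at 23.7, 27.2 and 30.7 CPM, again with no overlap. Its fold of 1.99 fell just short of the threshold (log2FC -0.99 ± 0.15, FDR = 7.75e-08). OB (-0.58), AMY (-0.54), HIP (-0.45), STR (-0.45), HTHA (-0.45) and SN (-0.33, FDR = 0.0495) passed the FDR with smaller folds. Oligodendrocyte markers were at 12.6 on the log2 scale in CC, 11.8 in GP, 7.49 in the cortex, 6.58 in PA and 2.18 in PIT. In the 6 groups from OB to SN, where NAPEPLD was lower, they were above the cortex (7.72 in OB to 10.3 in SN), and in VTA (11.5), MO (11.4) and PON (11.0) they were high with no NAPEPLD call. Their part in the NAPEPLD levels was not tested. In CC the markers of choroid plexus, with usable rows for KL, FOLR1 and CLIC6, were also raised in the dissected pieces (2.71 to 5.97, against 1.53 to 2.59 in the cortex), and their part in the CC values was not tested either.

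MGLL encodes the main hydrolase of 2-arachidonoylglycerol. It was highest in THA, with 332, 381 and 492 CPM in the lowest, median and highest animal, against 193, 226 and 267 in the cortex. Every THA library exceeded every cortical value, at a fold of 1.69 that stayed under the threshold (log2FC 0.76 ± 0.13, FDR = 2.42e-07). STR was level with the cortex within its error (-0.04 ± 0.13, FDR = 0.813). MGLL was called lower in 8 groups, more than any other enzyme gene here. PIT had 17.4, 21 and 24 CPM (-3.42 ± 0.14, 10.7-fold, FDR = 1.60e-43). CC had 36.2, 46.6 and 69.0 CPM (-2.24 ± 0.14), and VTA 35.5, 62.2 and 77.3 (-1.92 ± 0.13). The ranges of all 3 lay clear of the cortex.

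HTHA was the group in which a single library shaped the MGLL level. Its values were 45.8, 64.6 and 171 CPM, the highest being the Rhesus 6 library with the raised glutamatergic markers. The log2FC was -1.58 ± 0.13 with that library and -1.84 without it. GP (-1.45), PON (-1.45), MO (-1.40) and SN (-1.06) completed the 8 groups, with all 8 animals below their own cortex in each. The 5 groups OB (-0.37), PA (-0.51), CB (-0.57), AMY (-0.68) and HIP (-0.72) passed the FDR at less than 2-fold.

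ABHD6 encodes a further 2-arachidonoylglycerol hydrolase, which sits in the membrane and is known from the postsynaptic side. Like NAPEPLD, it was highest in CC, with 93.0, 102 and 124 CPM in the lowest, median and highest animal, against 29.5, 32.8 and 35.2 in the cortex. The ranges were wide apart (log2FC 1.71 ± 0.11, 3.28-fold, FDR = 2.65e-29). CB (0.94), GP (0.91), VTA (0.85), MO (0.85), PON (0.83), THA (0.74) and HIP (0.41) passed the FDR under the fold of 2, and in each of these 7 groups all 8 animals were above their own cortex. HTHA (13.9, 20.1 and 37.2 CPM, -0.55 ± 0.11) and PIT (-0.30 ± 0.11) were lower, also at less than 2-fold. OB, STR, SN, AMY and PA did not pass the FDR, with log2FC between -0.24 and 0.11.

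The order of the levels was compared between neighbouring groups with an exact sign-flip permutation test over the 8 animals (two-sided, on log2(CPM + 1), Benjamini-Hochberg over 75 neighbours). The order came from the means of the same 8 animals, so the pairs were not chosen apart from the values tested. The smallest p the design allows is 0.0078125, which 11 neighbours reached, being higher in 8 of 8 animals, and 20 had an unadjusted p below 0.05. The adjusted p of the 11 was 0.0533, so that 0 of 75 passed, and 12 at the smallest p would have been needed for an adjusted p below 0.05. For CNR1, the 11 held CB above STR, OB above THA and THA above PON. The 11 also held MGLL in THA above the cortex and in CC above PIT, and DAGLB in GP above PIT. The rest were NAPEPLD in CC above GP and in PA above PIT, and ABHD6 in CC above CB, in THA above HIP and in HIP above OB. Most other neighbours were less clear, as from STR down to HIP for CNR1 (adjusted p of 0.280 or more) and from PON down to GP for DAGLB (0.507 or more).

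None of the 5 genes passed the stricter rule of lying more than 2-fold above every other region group, which 11.5% of all genes passed. The F test over the 16 groups passed for all 5 in edgeR (99.7% of all genes), so the fold decided, and DESeq2 gave the same count of 0. The top group led the next by a log2 of 0.99 for CNR1 (CB), 0.98 for NAPEPLD (CC), 0.77 for ABHD6 (CC), 0.76 for MGLL (THA) and 0.19 for DAGLB (cortex). CNR1 and NAPEPLD thus lay next to the threshold of 1. Without the CBC library of Rhesus 4 the lead of CNR1 was 1.09, and the count was 1. The lead of CB was over STR as a group, which pools ACb, CN and PUT. As single sub-regions, CNR1 averaged 167 CPM in CBV, 148 in PUT and 131 in CBC, so CB did not stand clear of PUT.

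Within the cortex, whether the genes differed among the 31 sub-regions was tested by an F test with the animal as a block. All 5 passed an FDR below 0.05, as did 75.1% of the 15981 genes tested. CNR1 varied the most in size, from a mean of 74.4 ± 16.6 CPM (SD, n = 8) in the ventromedial prefrontal cortex (vmPFC) to 14.6 ± 4.38 in the posterior superior occipital gyrus (pSOG), a ratio of 5.10 (FDR = 1.28e-28). The ranges of these 2 sub-regions, 48.8 to 97.7 and 8.69 to 19.8 CPM, did not overlap. High levels were also found in the anterior superior frontal gyrus (71.3 ± 16.9), the temporal polar gyrus (69.0 ± 14.8) and the insula (68.9 ± 18.5). The lowest after pSOG were the inferior occipital gyrus (15.5 ± 4.02), the anterior superior occipital gyrus (21.1 ± 4.83) and the lingual gyrus (23 ± 7.35).

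**Figure D3:**
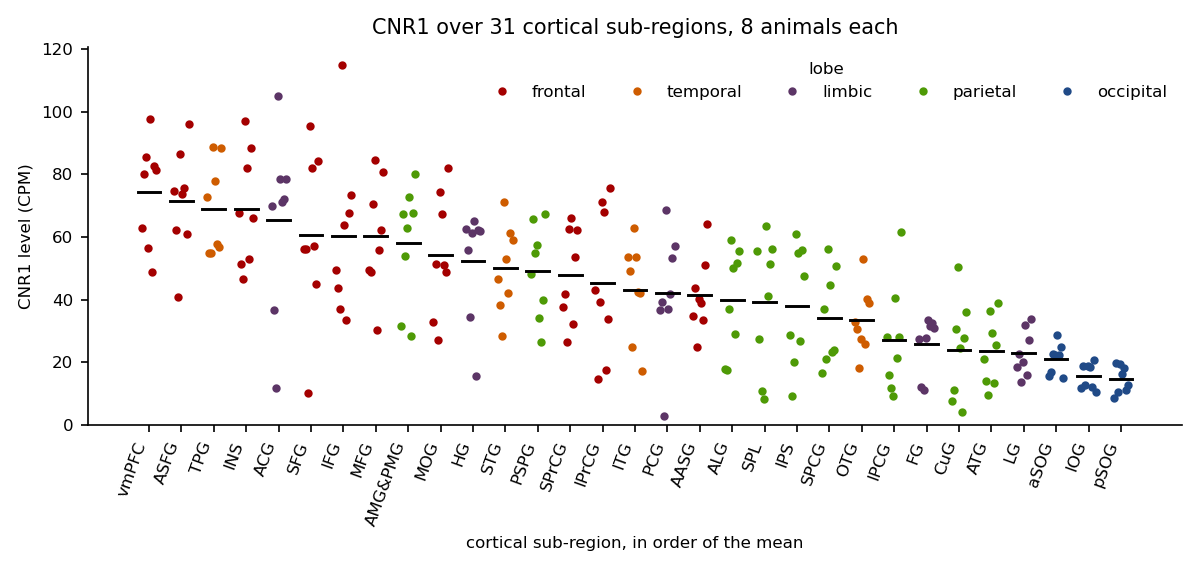
CNR1 in the 31 cortical sub-regions, ordered by mean: points are the 8 animals in TMM-scaled CPM, coloured by lobe, and the bars mark means. The 3 occipital gyri lie at the low end (14.6 to 21.1 CPM) and vmPFC at the high end (74.4 CPM).

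The enzyme genes spanned less within the cortex. MGLL ran from 269 ± 54.9 CPM in the middle frontal gyrus to 161 ± 30.1 in the inferior occipital gyrus (1.67-fold, FDR = 2.19e-26). ABHD6 ran from 39.6 ± 3.96 CPM in the superior precentral gyrus to 25.1 ± 2.15 in the temporal polar gyrus (1.58-fold, FDR = 3.20e-27). The temporal polar gyrus thus held the lowest ABHD6 and one of the highest levels of CNR1. NAPEPLD (61.1 to 39.9 CPM, 1.53-fold, FDR = 0.00401) and DAGLB (46.1 to 35.2 CPM, 1.31-fold, FDR = 0.000101) varied least. The anterior cingular gyrus was lowest in NAPEPLD, at 39.9 ± 11.8 CPM, with 13.7 CPM in its lowest library.

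Counts were then summed over the sub-regions of each lobe, and each lobe was compared with the mean of the other 4. The lobes held 10 frontal sub-regions with the insula, 9 parietal with the cuneus gyrus, 5 limbic, 4 temporal and 3 occipital. The 5 limbic sub-regions were the anterior and posterior cingular, hippocampal, fusiform and lingual gyri. Their CNR1 levels were unlike, as with means of 65.5 CPM in the anterior cingular and 25.8 CPM in the fusiform gyrus. In the frontal lobe 3 of the 5 genes were called at an FDR below 0.05, next to 44% of all genes. The CPM values and counts of animals rest on the mean CPM over the sub-regions of a lobe, the log2FC and FDR on the summed counts. CNR1 had 40.8, 55.1 and 78.2 CPM in the lowest, median and highest animal of the frontal lobe, and was higher in 8 of 8 animals (log2FC 0.82 ± 0.09, FDR = 5.24e-09). MGLL (0.22 ± 0.04) and ABHD6 (0.19 ± 0.03) were also higher in 8 of 8 animals, by far smaller amounts. In the occipital lobe the same 3 genes were called lower, where 56.3% of all genes were called. CNR1 had 12, 18 and 21.1 CPM there, under each other lobe in every animal bar the limbic lobe of Rhesus 4 (14.7 CPM), at a log2FC of -1.35 ± 0.11 (FDR = 1.32e-12). MGLL (-0.37 ± 0.04) and ABHD6 (-0.09 ± 0.03) were lower in 8 of 8 animals as well.

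The other lobes held fewer calls. In the temporal lobe 2 genes were called (25.7% of all genes), CNR1 higher (0.46 ± 0.09) and ABHD6 lower (-0.18 ± 0.03), each in 8 of 8 animals. In the limbic lobe DAGLB alone was called (0.14 ± 0.04, FDR = 0.0157, higher in 6 of 8), against 15.9% of all genes. Rhesus 4 had 54.6 CPM of DAGLB there, against 34.4 to 46.3 in the other animals. Its posterior and anterior cingular libraries held 69.5 and 66.3 CPM, against 35.7 to 49.4 and 31.3 to 45.9 in the others. No lobe fit was made without these libraries. In the parietal lobe ABHD6 alone was called (0.13 ± 0.03, higher in 8 of 8), against 9.64%. NAPEPLD was called in none of the 5 lobes. Without the animal as a block 6 of the 10 lobe calls were made, the 4 that missed the FDR being DAGLB in the limbic, ABHD6 in the occipital and parietal, and CNR1 in the temporal lobe.

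In the hippocampus, 3 of the 5 genes were called between DG and CA1 (31.5% of all genes) and 3 between DG and CA3 (32.5%). CNR1 was the largest difference of the 5, at 5.38, 13.2 and 30.2 CPM in DG (lowest, median, highest) against 21.5, 42.6 and 58.8 in CA1 and 13.7, 41.7 and 58.6 in CA3. The ranges overlapped, but DG was under CA1 in 8 of 8 animals and under CA3 in 7 of 8. The log2FC of DG over CA1 was -1.63 ± 0.25 (FDR = 0.000178) and that over CA3 -1.55 ± 0.26 (FDR = 0.000326). MGLL was also lower in DG (-0.24 ± 0.08 and -0.47 ± 0.08), and NAPEPLD was higher (0.27 ± 0.08 and 0.26 ± 0.08). Between CA1 and CA3 edgeR and DESeq2 each called 0 of 5, with 2 at an unadjusted p below 0.05, and 0.0338% of all genes were called.

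In the striatum CNR1 was lowest in ACb and highest in PUT. ACb had 9.52, 19.1 and 48.4 CPM, CN 41.6, 70.6 and 116, and PUT 64.8, 120 and 301. ACb and PUT did not overlap, and PUT exceeded CN in 8 of 8 animals. The log2FC of ACb over PUT was -2.66 ± 0.27 (6.31-fold, FDR = 1.92e-07), that of ACb over CN -1.71 ± 0.27, and that of CN over PUT -0.95 ± 0.25 (FDR = 0.00741). Of the 5 genes 4 were called between ACb and PUT (45.4% of all genes), 3 between ACb and CN (34.5%) and 2 between CN and PUT (30.4%).

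**Figure D4:**
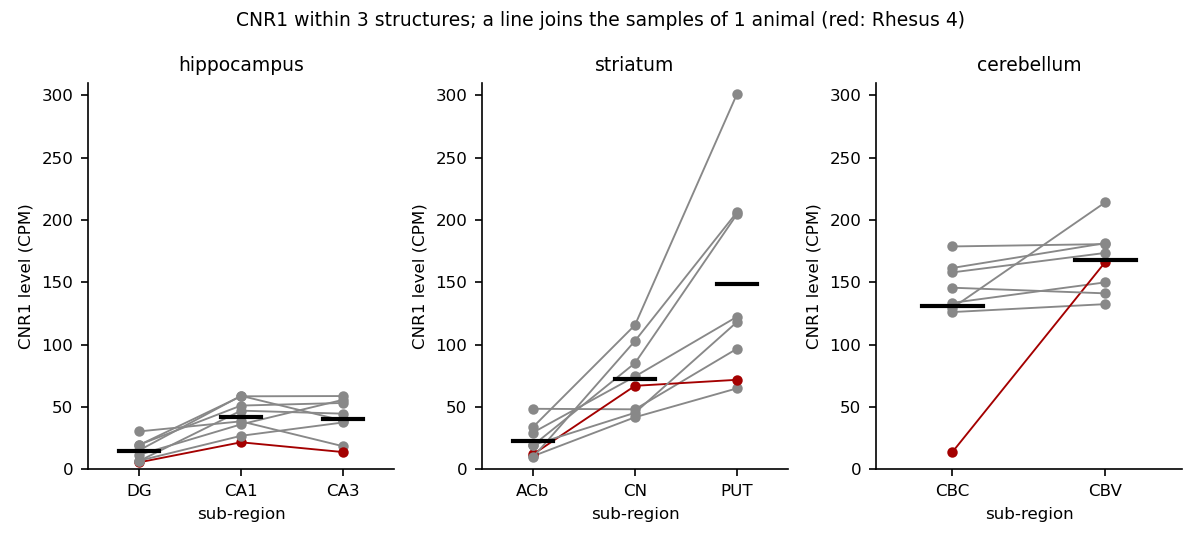
CNR1 in the sub-regions of the hippocampus, striatum and cerebellum: points are the 8 animals in TMM-scaled CPM, joined within an animal, with Rhesus 4 in red and bars at the means. DG lies under CA1 and ACb under PUT in 8 of 8 animals, and the CBC library of Rhesus 4 lies at 13.8 CPM.

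The enzyme genes followed part of this order. ABHD6 was lower in ACb than in CN (-0.29 ± 0.07) and than in PUT (-0.73 ± 0.07), and lower in CN than in PUT (-0.44 ± 0.07), each in 8 of 8 animals. In ACb it ranged only from 22.5 to 25.3 CPM, below the lowest PUT value of 28.6. MGLL was lower in ACb than in CN (-0.69 ± 0.10) and PUT (-0.75 ± 0.10), with 113 to 196 CPM in ACb and at least 202 in CN and 216 in PUT, while CN and PUT did not differ beyond their error (-0.06 ± 0.10). NAPEPLD was lower in ACb than in PUT (-0.36 ± 0.11), and DAGLB was called in none of the 3 contrasts.

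Between CBV and CBC edgeR and DESeq2 each called 0 of 5, with 0 at an unadjusted p below 0.05, and 0.842% of all genes were called. CNR1 had 132, 170 and 214 CPM in CBV and 13.8, 140 and 179 in CBC, higher in CBV in 7 of 8 animals (log2FC 0.50 ± 0.33, FDR = 0.465). Without the CBC library of Rhesus 4 the log2FC was 0.18 (FDR = 0.193). That library was also the lowest in NAPEPLD, at 18.5 CPM against 50.8 to 79.3 CPM in the other 7. The CBV library of the same animal, at 166 CPM of CNR1, lay within the range of the others.

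Ratios of 2 enzyme genes within a sample need no gene length, and they were compared with the cortex by the exact sign-flip permutation test over 8 animals (two-sided, Benjamini-Hochberg over 30 ratios). The ratio of MGLL to ABHD6, the 2 hydrolases of 2-arachidonoylglycerol, was lower than in the cortex in 13 of 15 groups. In CC it was lower by 15.5-fold (log2 difference -3.96 ± 0.41, SD), in PIT by 8.58-fold (-3.10 ± 0.40) and in VTA by 6.83-fold (-2.77 ± 0.43), in 8 of 8 animals each (exact permutation p = 0.0078125, adjusted p = 0.0123). STR (0.02 ± 0.15) and THA (0.02 ± 0.26) were the 2 groups whose ratio was not called different from the cortex. In these 2 groups MGLL and ABHD6 kept a mean ratio 1.01-fold that of the cortex, with 4 and 3 of 8 animals above it.

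The ratio of DAGLB to MGLL, a synthetic to a hydrolytic enzyme of the same lipid, was computed as a pair chosen after the rows of DAGLA and FAAH had not been matched. It was higher than in the cortex in 8 groups and lower in 3, with 4 not called. PIT (1.64 ± 0.34), CC (1.22 ± 0.43) and VTA (1.08 ± 0.39) were highest, with 8 of 8 animals above the cortex. THA (-1.20 ± 0.22), STR (-0.87 ± 0.19) and CB (-0.62 ± 0.35) were lower in 8 of 8. Since MGLL enters both ratios, the 2 sets of calls are not separate evidence.

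**Figure D5:**
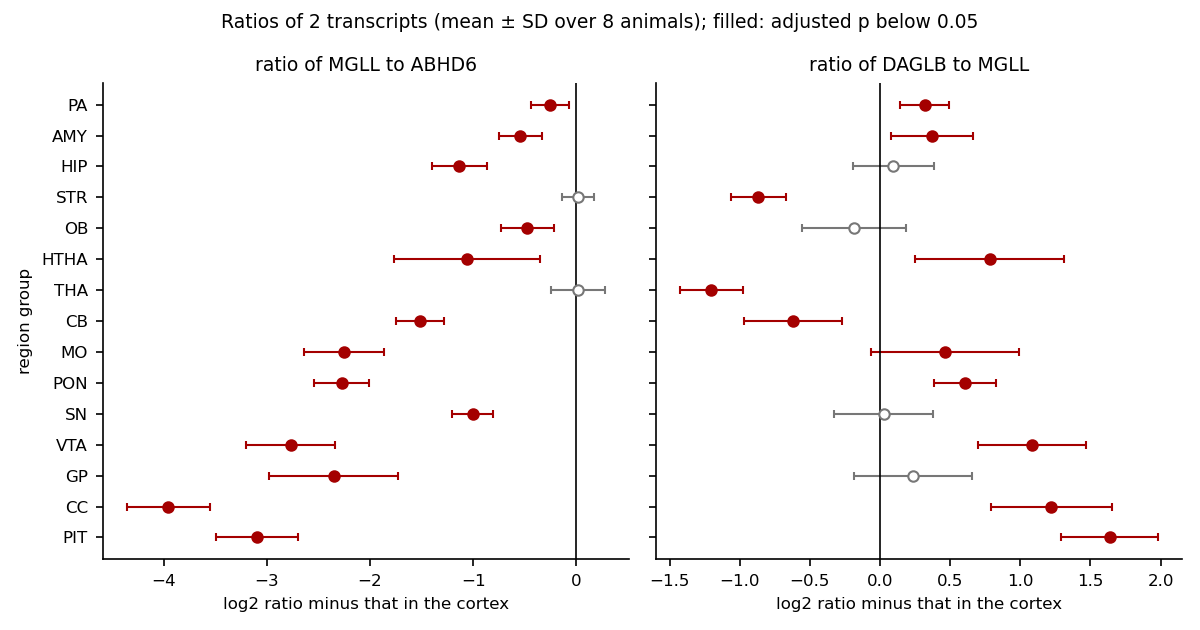
Log2 ratios of MGLL to ABHD6 and of DAGLB to MGLL in each region group minus those in the cortex of the same animal: points are means over 8 animals, error bars 1 SD, and filled points have an adjusted p below 0.05. MGLL to ABHD6 reaches a mean of -3.96 in CC and stays at 0.02 in STR and THA.

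Age stage and sex were compared within each of the 16 region groups, in 79 pairs of a gene and a group, as CNR1 in PON did not pass the filter on low counts. For age stage edgeR called 0 of 79 at an FDR below 0.1 and an absolute log2FC above 1 (0.0164% of all pairs were called). An unadjusted p below 0.05 was found for 5 pairs, next to 5.73% of all pairs, the smallest FDR was 0.364, and DESeq2 called 1. That pair was CNR1 in PIT, where the young animals Rhesus 4, 7, 8 and 10 had 61.6, 63.2, 27.9 and 55.2 CPM and the mid-aged Rhesus 2, 3, 6 and 11 had 13.2, 18.9, 20.7 and 43.5. The 2 stages overlapped through Rhesus 8 and Rhesus 11. The log2FC of mid-aged over young was -1.17 ± 0.33 (FDR = 0.398 in edgeR), and -1.16 (FDR = 0.0424) in DESeq2.

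For sex edgeR called 0 of 79 pairs (0.105% of all pairs), 2 had an unadjusted p below 0.05 (3.54% of all pairs), the smallest FDR was 0.221, and DESeq2 called 1. That pair was CNR1 in MO, at 63.6, 55.6, 11.1 and 31.8 CPM in the males Rhesus 2, 3, 7 and 8 and 4.54, 6.85, 9.88 and 14.4 in the females Rhesus 4, 6, 10 and 11. The sexes overlapped through Rhesus 7 and Rhesus 11. The log2FC of female over male was -2.05 ± 0.44 (FDR = 0.587 in edgeR), and -2.06 (FDR = 0.00172) in DESeq2. The neuronal and interneuron markers of these MO libraries differed between animals as given above.

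How alike the patterns of the 5 genes were was described over the 16 region group means, which share animals and library preparation. NAPEPLD and ABHD6 were most alike (Pearson r = 0.88, also 0.88 without PIT). DAGLB and MGLL followed (0.72, and 0.57 without PIT). CNR1 was not close to any of them, with r between -0.44 and 0.09. Against the marker lists, NAPEPLD had r = 0.82 and ABHD6 r = 0.67 with oligodendrocytes (0.77 and 0.69 without PIT). DAGLB had 0.81 with glutamatergic neurons (0.77 without PIT), and MGLL 0.73 with neurons (0.56). The r of ABHD6 with interneuron markers was -0.48 (-0.77 without PIT). ABHD6 was at 62.9 CPM in CB, 31.2 in SN and 32.6 in the cortex, with oligodendrocyte markers at 7.84, 10.3 and 7.49. The part of these markers in the ABHD6 levels was not tested. CNR1 had its highest r with cerebellar markers (0.53, and 0.55 without PIT), a list at 9.76 in CB and at most 3.31 in any other group. Its r was 0.38 with interneuron markers (0.53 without PIT). With endothelial cells it was -0.56 and with oligodendrocytes -0.54 (-0.57 and -0.62 without PIT).

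Among 13237 genes with a symbol, those whose region group means were most like CNR1 were ARHGAP26 (r = 0.93), SLC25A42 (0.91) and ZNF777 (0.90). For DAGLB they were KHDRBS3 (0.92), TAFA2 (0.90) and PRICKLE2 (0.90). MGLL was most like GABBR1 (0.92), a subunit of the GABA-B receptor, DGKI (0.92), a diacylglycerol kinase, and MTOR (0.91). For NAPEPLD the closest were DYNC1I2 (0.95), CILK1 (0.94) and CREB5 (0.94), and for ABHD6 CEP97 (0.90), PCCA (0.89) and FAR1 (0.89). These are descriptions over 16 points, and many other genes lay close behind.

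A wider list of 21 receptor, synthesis, hydrolysis and carrier genes of the system was read beside the 5. Rows were matched for 16, and 13 passed the filter on low counts. CNR2, the second cannabinoid receptor gene, GPR119 and PLA2G4E did not pass it. Of the 195 pairs tested against the cortex, 31 were higher and 48 lower (40.5% called, next to 24.5% of all pairs). Receptors and their partners had 4 higher and 19 lower of 60 pairs, synthesis genes 9 and 14 of 60, and hydrolysis and oxidation genes 18 and 15 of 75. Single genes made most of the lower calls: TRPV1 13 of the 19, PLCB1 10 of the 14 and PTGS2 14 of the 15. The 4 higher receptor calls were all of PPARA. FAAH2, a relative of the unmatched FAAH, was higher by 5.30 ± 0.22 on the log2 scale in PIT and by 2.26 ± 0.20 in HTHA. PLCB4, a phospholipase C that supplies diacylglycerol, was higher by 2.45 ± 0.17 in CB. PLCB1, of the same family, had a log2FC of -5.40 ± 0.28 in PIT. PTGS2, a cyclooxygenase that can oxidise endocannabinoids, had -5.33 ± 0.39 in HIP and -5.26 ± 0.42 in PON, and was called lower in 14 of 15 groups.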

How the data were processed

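The deposited table held gene counts, which the authors made from ribosomal RNA-depleted, strand-marked libraries with FastQC 0.11.4, Trim Galore 0.4.4 for samples of poor read quality, HISAT2 2.0.5 on the macaque assembly Mmul 8.0.1 and HTSeq 0.6.1. How HTSeq treated strand and overlapping genes was not given in the sources used here, so genes that overlap others are uncertain. Medians and ranges of the total counts per sample stand in the report, and counting error covers only part of the spread between animals.

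Genes passing filterByExpr were fitted with edgeR 4.0.16 (quasi-likelihood test, TMM) in R 4.3.3, with limma 3.58.1, and with DESeq2 1.42.0 as an alternative. SE is the absolute log2FC divided by the square root of F. Counts were summed within an animal for region groups and lobes, and samples were used for sub-regions. The animal, named in the labels, was the block in all fits but those for age stage and sex, which were made per region group with the other factor as covariate. In fits of over 200 samples the dispersion trend used every 10th gene. Ratios and neighbours were tested by sign flips over animals in Python 3.11.15 (numpy 2.4.6, pandas 2.3.3, scipy 1.17.1, matplotlib 3.10.9), neighbours with a pseudocount of 1 CPM. The edgeR fits were checked on counts simulated with the same dispersion for every gene and no differences between animals. The sign flips were checked on independent normal values. Both settings are simpler than these data.

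The genes, the marker lists and the wider list were chosen with earlier results of these data known. Every matched gene of the system is reported in each comparison, and of the wider list the 3 calls with the largest absolute log2FC in each direction. The 3 genes most like each were taken by Pearson r of mean log2(CPM + 1) over the 16 region groups. Other assays of the series were not used here.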

Additional observations from a re-analysis of the deposited data

Results flagged for a closer look

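In 80 sets of 8 animals, 1 for each of the 5 genes in each of the 16 region groups, 4 held a library whose gap to the nearest other exceeded Dixon's critical value of 0.526 as a share of the range. Chance alone flags about 1 in 20 such sets. DAGLB in AMY was lowest in Rhesus 7, at 23.3 CPM against 32.8 to 38.2 in the other 7. Rhesus 6 was highest in HTHA for both DAGLB (38.6 CPM against 16.6 to 25.2) and MGLL (171 CPM against 45.8 to 103). NAPEPLD in CB was lowest in Rhesus 4, at 33.1 CPM against 61.6 to 76.4, and the CBC library of that animal was also low in CNR1.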

How the results depend on the processing

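Against the cortex, 24 calls became 59 at an FDR below 0.05 with no fold and 9 with a fold above 4, and lay between 24 and 26 under the other alternatives. NAPEPLD in PA passed the fold of 2 with no filter (log2FC -1.09), with no replicate block (-1.0), without the HTHA library of Rhesus 6 (-1.02) and without the GP library of Rhesus 3 (-1.02), and DAGLB passed it in MO with no filter (-1.04). Calls between lobes were 10, and 6 with no replicate block; in the same unpaired fits, calls between sub-regions of the hippocampus, striatum and cerebellum were 11 in place of 15 (14 with no filter, which lost MGLL in DG over CA1 at FDR = 0.0507), and the genes varying over cortical sub-regions 4 in place of 5. The number of genes over 2-fold above every other region group was 0, and 1 without the CBC library of Rhesus 4. For age stage, 0 calls became 1 with no filter and 1 with DESeq2, both CNR1 in PIT, and for sex 1 and 1, both CNR1 in MO. Leaving out 1 animal at a time gave 0 to 1 calls for age stage and 0 to 1 for sex, the 1 arising without Rhesus 7 (CNR1 in THA, log2FC 1.58, and CNR1 in PIT, 1.08). No value changed its direction past a threshold. Fits without the CBC library of Rhesus 4, the MO library of Rhesus 6 or the GP library of Rhesus 3, and the ratio of DAGLB to MGLL, were chosen after seeing the data. Low counts limit CNR1 in PON and THA, and 4 animals in each age stage or sex limit those comparisons. The causes of these changes were not tested.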
